A study of Mus musculus with 12 samples.

Results

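The genes described here are the mouse EGF receptor Egfr, its relatives Erbb2 and Erbb3, 4 of their ligands (Egf, Hbegf, Tgfa and Areg) and 3 membrane proteases that can release such ligands from the cell surface (Adam8, Adam10 and Adam17). The 10 genes were chosen by name and matched to the count table by Entrez identifier. Of these, 9 had an entry among the 13124 genes of the table, and Areg (amphiregulin, Entrez 11839) was not analysed here.

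RNA had been sequenced from whole kidneys of male C57BL/6 mice, rinsed free of blood with saline and taken 24 h after surgery. Each of the 4 groups held 3 kidneys, which the labels number 1 to 12 across the study. Kidneys 7 to 9 came from mice given an anti-G-CSFR mAb (VR81), an antibody against the receptor of granulocyte colony-stimulating factor, 24 h before ischaemia-reperfusion injury (IRI). Kidneys 10 to 12 came from mice given an anti-C5 mAb (BB5.1), an antibody against complement component C5, at the same time before IRI. Kidneys 4 to 6 had IRI after an isotype control mAb and are called isotype kidneys below. Kidneys 1 to 3 were sham operated, had no IRI and are labelled untreated, so IRI and antibody cannot be told apart between the isotype and sham groups. In IRI the blood supply of the kidney is stopped and then restored, and the series describes the injury as warm and unilateral. The labels give no age, and they do not say whether the kidney taken was always the operated one. The mice carried no named transgene or mutation. Because the labels name separate kidneys but no litter or cage, p-values measure the spread between these kidneys.

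Receptors of this family are tyrosine kinases that pair up when a ligand binds and then switch on the Ras, ERK and PI3-kinase pathways. The ligands are made as proteins anchored in the cell membrane, and proteases of the ADAM family cut many of them free. In the kidney, Egf is made mainly by the thick ascending limb and the distal convoluted tubule, where it also regulates magnesium uptake, and receptor signalling after injury is known for its part in tubule repair and, when prolonged, in fibrosis.

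Between 13200930 and 16324215 reads were counted per kidney. Levels are given in CPM, a gene's reads scaled to a fixed library total, where TMM, a method that evens out differences in composition between libraries, adjusts the totals. Differences were tested with edgeR's quasi-likelihood test on the counts, p-values were adjusted over all 13124 genes by the Benjamini-Hochberg method, and a gene was called at an adjusted p below 0.05. In isotype against sham kidneys, 4207 genes were called higher and 4034 lower, and 5586 and 3095 when scaled by library totals alone. In anti-G-CSFR against isotype kidneys the split was 4137 higher and 4197 lower, or 3107 and 5554 by library totals, and in anti-C5 against isotype kidneys 4006 and 3913, or 3106 and 5111. The tubule injury marker Havcr1 stood at 17.2, 44.3 and 345 CPM in anti-G-CSFR kidneys, 31.7, 1507 and 14.5 CPM in anti-C5 kidneys, 5672, 3090 and 3032 CPM in isotype kidneys and 3.35, 14.3 and 3.08 CPM in sham kidneys. Lcn2, a secreted injury marker, stood at 14.3, 10.8 and 155 CPM in anti-G-CSFR kidneys, 18.1, 281 and 12.99 CPM in anti-C5 kidneys, 1018, 2849 and 2773 CPM in isotype kidneys and 13.7, 16.5 and 14.6 CPM in sham kidneys. Kidney 9 of the anti-G-CSFR group and kidney 11 of the anti-C5 group therefore stood apart from the rest of their groups, and results that rest on them are also given without them. Kidney 4 stood apart in the isotype group: its counts differed from those of kidneys 5 and 6 by a chi-square of 46.1 and 48.4 per degree of freedom, against 5.45 between kidneys 5 and 6. Without kidney 4, the same numbers of members were called in each direction against sham, and in both antibody comparisons with isotype, as are given below. The log2 change of Egf in isotype against sham was then -4.38 and that of Hbegf 1.32.

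The set split in direction. In isotype against sham kidneys, 5 of the 9 measured members were called higher and 1 lower, on a table where 62.8% of all genes were called in either direction, 32.1% higher and 30.7% lower. In anti-G-CSFR against isotype kidneys, 1 member was called higher and 5 lower, beside 63.5% of all genes in either direction, 31.5% higher and 32.0% lower. In anti-C5 against isotype kidneys, 1 member was again called higher and 5 lower, beside 60.3% of all genes in either direction, 30.5% higher and 29.8% lower. Adam8 is among the 5 each time. It is in the table through the kidneys where it is high, so its calls were fixed in part. The share of members called is close to that of the whole table, so the number of calls is no result about these genes; their directions and sizes are what follows. The median log2 change of the 9 members was 0.34 in isotype against sham kidneys, -0.48 in anti-G-CSFR against isotype kidneys and -0.46 in anti-C5 against isotype kidneys. The same medians over all genes were 0.03, -0.02 and -0.01. The shares of all genes given here are also the background for the list counts below in these comparisons. These comparisons share the isotype kidneys, so their values are set side by side and not counted as separate evidence. The plots of the members' levels in each kidney and of their changes show the pattern gene by gene.

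**Figure D1:**
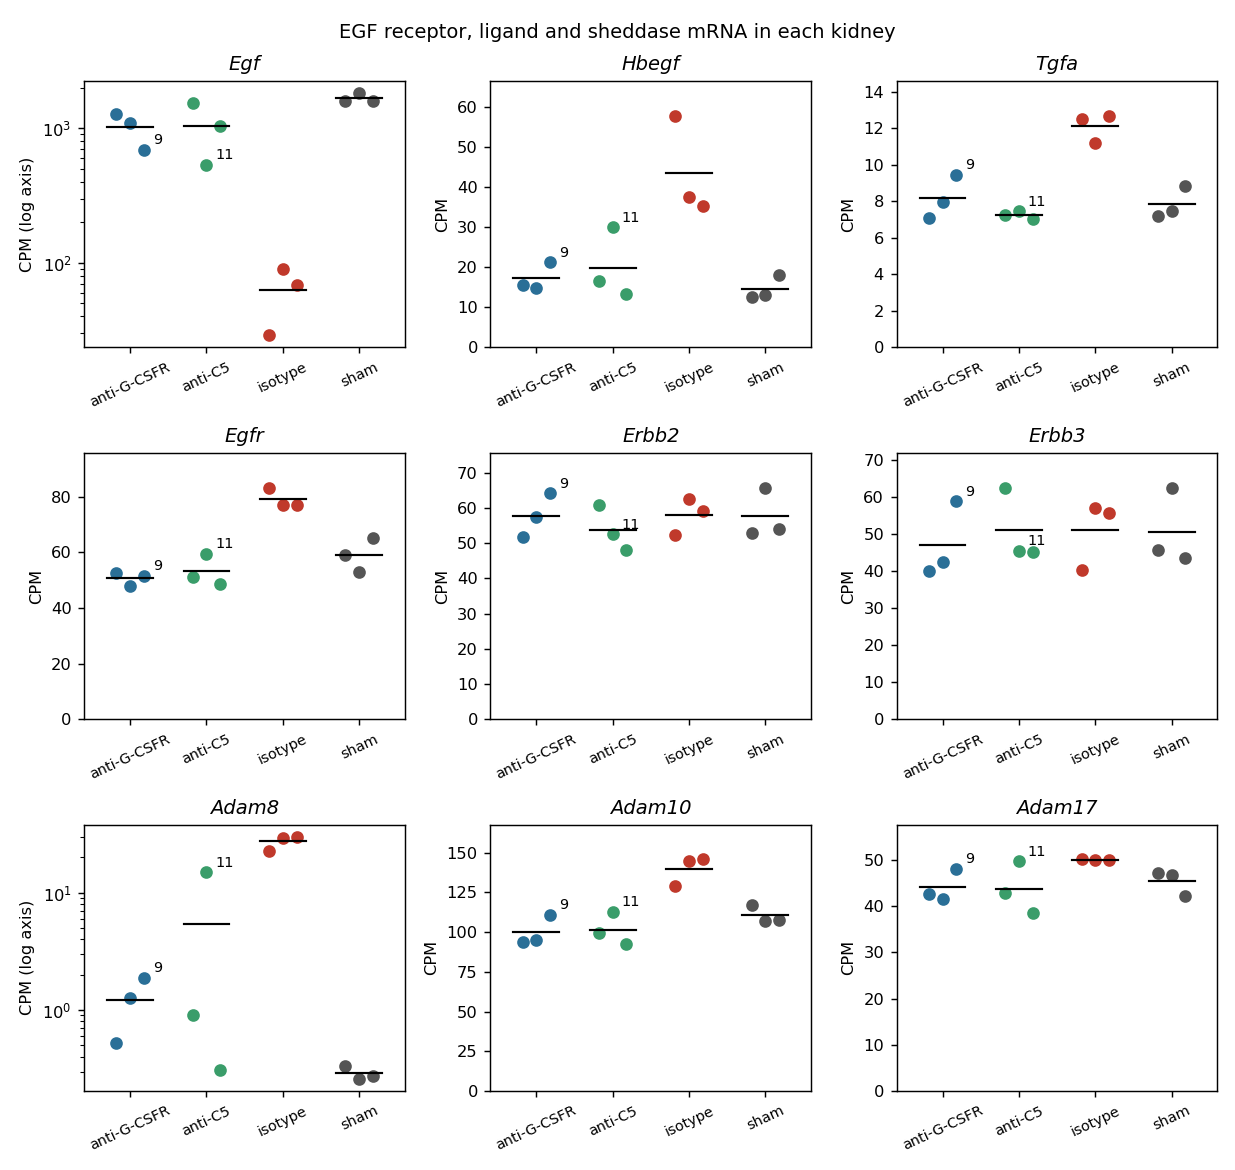
Level of each of the 9 measured members in every kidney, in CPM, with log axes for Egf and Adam8 and axes from 0 for the others; each point is 1 kidney, bars are group means (n = 3), and kidneys 9 and 11 are numbered. Egf is lowest and Hbegf, Tgfa, Egfr, Adam8 and Adam10 are highest in the isotype kidneys, while the points for Erbb2 and Erbb3 overlap across all 4 groups.

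**Figure D2:**
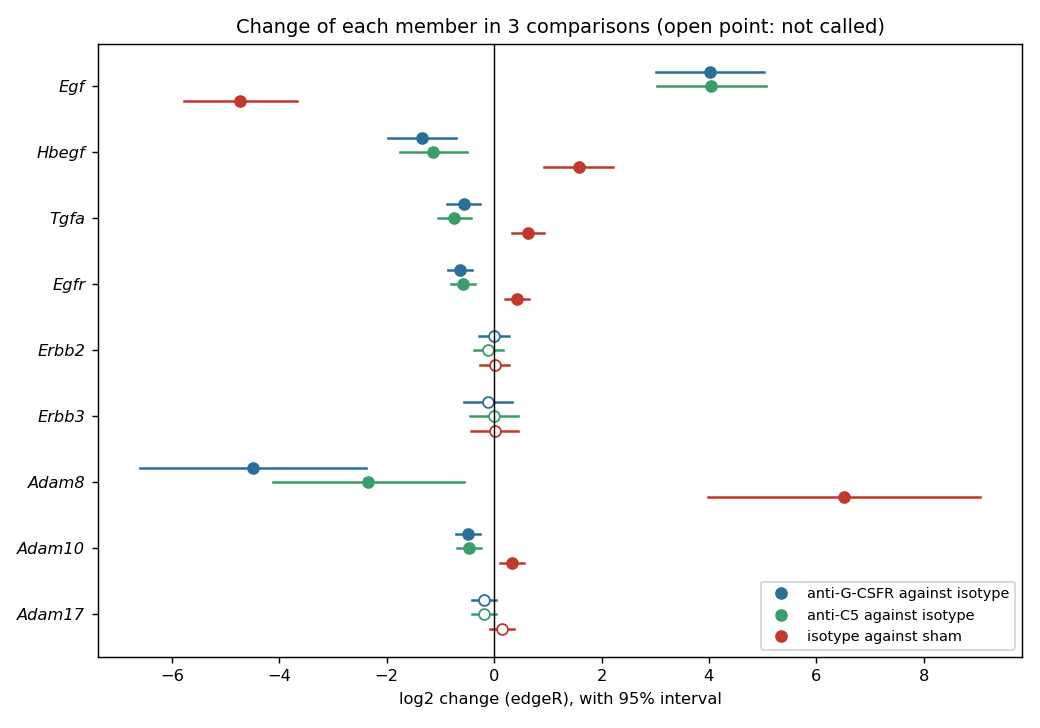
Log2 change of each member with its 95% interval from edgeR, for anti-G-CSFR against isotype, anti-C5 against isotype and isotype against sham kidneys; filled points are called and open points are not. Egf alone lies right of 0 in both antibody comparisons among the called members, and Adam8 has the widest intervals.

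Egf, the founding ligand of the family, made the largest fall of the set. Its gene (Entrez 13645) spans GRCm38 chr3:129677565-129755316 on the minus strand. It stood at 1277, 1085 and 690.5 CPM in anti-G-CSFR kidneys, 1546, 536 and 1031 CPM in anti-C5 kidneys, 29.0, 90.5 and 68.9 CPM in isotype kidneys and 1584, 1817 and 1576 CPM in sham kidneys. Every isotype kidney lay below every other kidney of the study, and both antibody groups lay between isotype and sham. In isotype against sham kidneys Egf fell by 4.72 ± 0.479 on the log2 scale (SE), which is 26.4-fold lower (edgeR adjusted p = 1.2e-05). By size of fall it ranked 40 among the 13124 genes. It was higher than in isotype kidneys by 4.02 ± 0.464 under anti-G-CSFR (edgeR adjusted p = 3.2e-05) and by 4.05 ± 0.464 under anti-C5 (edgeR adjusted p = 3.9e-05), 16.2-fold and 16.5-fold.

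The markers of the tubule segments that make Egf moved in the same comparison. Of 8 measured markers of the thick ascending limb and distal convoluted tubule, 7 were called lower and none higher in isotype against sham kidneys. Over the whole table, these shares were 30.7% lower and 32.1% higher. Slc12a1, the transporter NKCC2 that loop diuretics block, fell by 3.95 ± 0.273 on the log2 scale (SE, edgeR adjusted p = 2.0e-06), and Pvalb, which encodes parvalbumin, a marker of the early distal convoluted tubule, fell by 5.29 ± 0.609 (edgeR adjusted p = 2.6e-05). Umod, the most abundant protein of urine and a product of the thick ascending limb, was not called, at -0.27 ± 0.165 (SE, edgeR adjusted p = 0.16). The summed level of the 8 markers ran from 7324 to 8068 CPM in anti-G-CSFR kidneys, 6489 to 9083 CPM in anti-C5 kidneys, 4408 to 6258 CPM in isotype kidneys and 8701 to 9544 CPM in sham kidneys, and none of them was at 0 in any kidney. In whole kidneys, fewer cells of a type and less RNA per cell cannot be told apart, and the part of these segments in the Egf result was not tested. The proximal tubule list fell as well, with 8 of 8 markers called lower and a median log2 change of -2.66. The plot of Egf beside the genes of its segments gives each change.

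**Figure D3:**
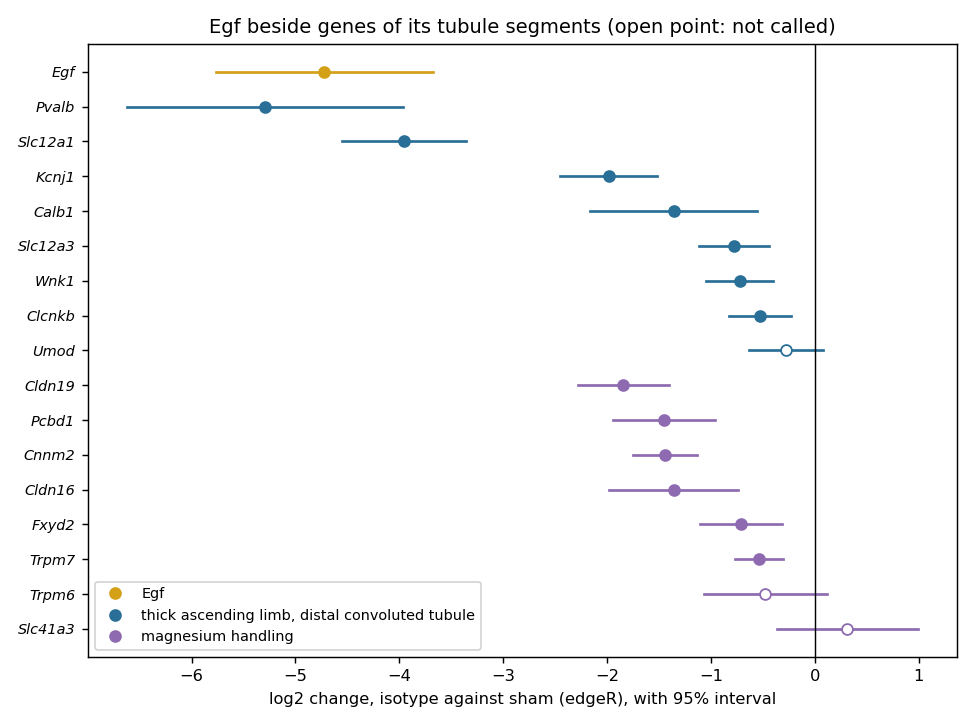
Log2 change with its 95% interval from edgeR in isotype against sham kidneys (n = 3 each), for Egf, 8 markers of the thick ascending limb and distal convoluted tubule and 8 magnesium handling genes; filled points are called and open points are not. Egf at -4.72 lies between Pvalb at -5.29 and Slc12a1 at -3.95, and every other gene shown changed less.

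Magnesium handling genes, which act in the same segments and in part downstream of EGF, went the same way. Of 8 measured, 6 were called lower and none higher in isotype against sham kidneys, beside 30.7% and 32.1% of all genes. Their median log2 change was -1.03. Cldn19, a tight junction protein needed for magnesium reabsorption, fell to 19.3 CPM in isotype kidneys, against 69.1 CPM in sham kidneys, a log2 change of -1.84 ± 0.1996 (SE, edgeR adjusted p = 1.8e-05). Pcbd1, a cofactor of a transcription factor of the distal tubule, had a log2 change of -1.45 ± 0.227 (SE, edgeR adjusted p = 0.00020). Trpm6, the magnesium channel whose activity EGF is known to raise, was not called, at -0.47 ± 0.271 (SE, edgeR adjusted p = 0.15). Under each antibody, 6 of the 8 were called higher than in isotype kidneys and none lower, with medians of 1.18 for anti-G-CSFR and 1.08 for anti-C5.

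The upstream sequence of Egf is shown because it is the member with the largest fall, with those of Egfr and Adam8 further on as members that moved the other way. Each is the 250 bases before the RefSeq start in the build GRCm38.p6, read along the gene's strand from 5′ to 3′. A promoter was found for 7 of the 9 measured members. The stretch for Egf is chr3:129755323-129755572 on the minus strand, of which 50.4% is G or C. For Egf 2 promoters were listed. The one nearest the start of the gene span given above was used, and the other was not searched for the members' motifs.

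Egf: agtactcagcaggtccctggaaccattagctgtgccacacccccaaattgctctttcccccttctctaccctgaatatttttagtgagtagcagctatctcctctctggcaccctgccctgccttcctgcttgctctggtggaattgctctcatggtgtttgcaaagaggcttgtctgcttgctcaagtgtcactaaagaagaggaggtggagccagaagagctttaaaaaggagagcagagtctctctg

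On both strands, 5 motifs were searched: the AP-1 site TGANTCA, the cAMP response element TGACGTCA, the GC box GGGCGG, the CCAAT box CCAAT and the TATA box TATAAA. None of these letters occurred in the Egf stretch, so it has no capitals. Among 27025 mouse promoters of the same length, 6.87% held the AP-1 site, 1.62% the cAMP response element, 32.9% the GC box, 34.5% the CCAAT box and 13% the TATA box. The AP-1 site, the cAMP response element and the TATA box were found in none of the 7 members' stretches, and no matches of different motifs overlapped. A match of letters is a description of the sequence and shows no binding.

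Hbegf, the heparin-binding ligand that also acts as the receptor for diphtheria toxin in humans, went the opposite way to Egf. The gene (Entrez 15200) spans chr18:36504927-36515805 on the minus strand. It stood at 15.7, 14.9 and 21.3 CPM in anti-G-CSFR kidneys, 16.5, 29.9 and 13.2 CPM in anti-C5 kidneys, 57.8, 37.6 and 35.4 CPM in isotype kidneys and 12.6, 13.2 and 18.1 CPM in sham kidneys. All isotype kidneys lay above all others, and the antibody groups overlapped with sham. Hbegf rose by 1.58 ± 0.293 on the log2 scale in isotype against sham kidneys (SE, edgeR adjusted p = 0.00065), 2.98-fold. Under anti-G-CSFR it was lower than in isotype kidneys, with a log2 change of -1.34 ± 0.291 (SE, edgeR adjusted p = 0.0018), and under anti-C5 with one of -1.13 ± 0.288 (SE, edgeR adjusted p = 0.0053).

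Tgfa, transforming growth factor alpha, is a ligand of the EGF receptor alone. The gene (Entrez 21802) spans chr6:86195223-86275719 on the plus strand. It stood at 7.07, 7.98 and 9.46 CPM in anti-G-CSFR kidneys, 7.26, 7.45 and 7.04 CPM in anti-C5 kidneys, 12.5, 11.2 and 12.7 CPM in isotype kidneys and 7.17, 7.46 and 8.84 CPM in sham kidneys. The isotype kidneys were again above all others, by a smaller margin. Tgfa rose by 0.63 ± 0.139 on the log2 scale in isotype against sham kidneys (SE, edgeR adjusted p = 0.0020). It was lower than in isotype kidneys under anti-G-CSFR, at -0.57 ± 0.139 (SE, edgeR adjusted p = 0.0037), and under anti-C5, at -0.74 ± 0.140 (SE, edgeR adjusted p = 0.00088).

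Of 7 further ligands of the family, 3 had an entry in the table, and Ereg, Epgn, Nrg2 and Nrg3 were not analysed here. Btc, betacellulin, a ligand of EGFR and ERBB4, averaged 11.9 ± 3.50 CPM in anti-G-CSFR kidneys, 11.0 ± 1.08 CPM in anti-C5 kidneys, 5.63 ± 0.594 CPM in isotype kidneys and 11.3 ± 2.60 CPM in sham kidneys (SD, n = 3 each). It was called lower in isotype against sham kidneys, at -1.01 ± 0.224 (SE, edgeR adjusted p = 0.0021), as Egf was. Nrg1, a neuregulin that binds ERBB3 and ERBB4, averaged 24.2 ± 8.96 CPM in anti-G-CSFR kidneys, 28.0 ± 13.8 CPM in anti-C5 kidneys, 61.3 ± 10.4 CPM in isotype kidneys and 21.4 ± 2.66 CPM in sham kidneys (SD, n = 3 each). It was called higher in isotype against sham kidneys, at 1.52 ± 0.341 (SE, edgeR adjusted p = 0.0022). Nrg4, a neuregulin that binds ERBB4, was not called, at -0.42 ± 0.385 (SE, edgeR adjusted p = 0.36).

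Divided by the length of each gene's exons in the GENCODE vM21 annotation, levels of different ligands can be set beside each other roughly. The exons of all transcripts of a gene were merged for this, and the mRNA in these kidneys may be shorter. Shares, ratios and orders per kb depend on that choice. The sum of the 4 measured ligands of EGFR (Egf, Hbegf, Tgfa and Btc) was 97.7 ± 26.1 CPM per kb in anti-G-CSFR kidneys, 99.7 ± 43.4 in anti-C5 kidneys, 17.7 ± 1.03 in isotype kidneys and 154 ± 12.3 in sham kidneys (SD, n = 3 each). The isotype kidneys, at 16.7 to 18.8 CPM per kb, lay below every other kidney, of which kidney 11 was lowest at 57.2. The make-up of the sum changed with its size. Egf made up 91.8 ± 3.32% of it in anti-G-CSFR kidneys, 90.6 ± 6.52% in anti-C5 kidneys, 31.3 ± 14.7% in isotype kidneys and 95.6 ± 0.718% in sham kidneys (SD, n = 3 each). Hbegf made up 4.00 ± 2.01% in anti-G-CSFR kidneys, 5.33 ± 4.77% in anti-C5 kidneys, 51.1 ± 14.8% in isotype kidneys and 1.98 ± 0.489% in sham kidneys (SD, n = 3 each). Outside the isotype group Egf exceeded Hbegf in every kidney, by at least the 7.67-fold of kidney 11. In isotype kidneys 4, 5 and 6 the Egf to Hbegf ratio was 0.215, 1.03 and 0.835. Not divided by length, Egf stood there at 29.0, 90.5 and 68.9 CPM and Hbegf at 57.8, 37.6 and 35.4 CPM. By CPM, Egf was thus the higher of the pair in kidneys 5 and 6. Shares of a sum depend on each other, and the fall of Egf alone raises the other shares. The plot of the 4 ligands shows both the sum and the shares.

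**Figure D4:**
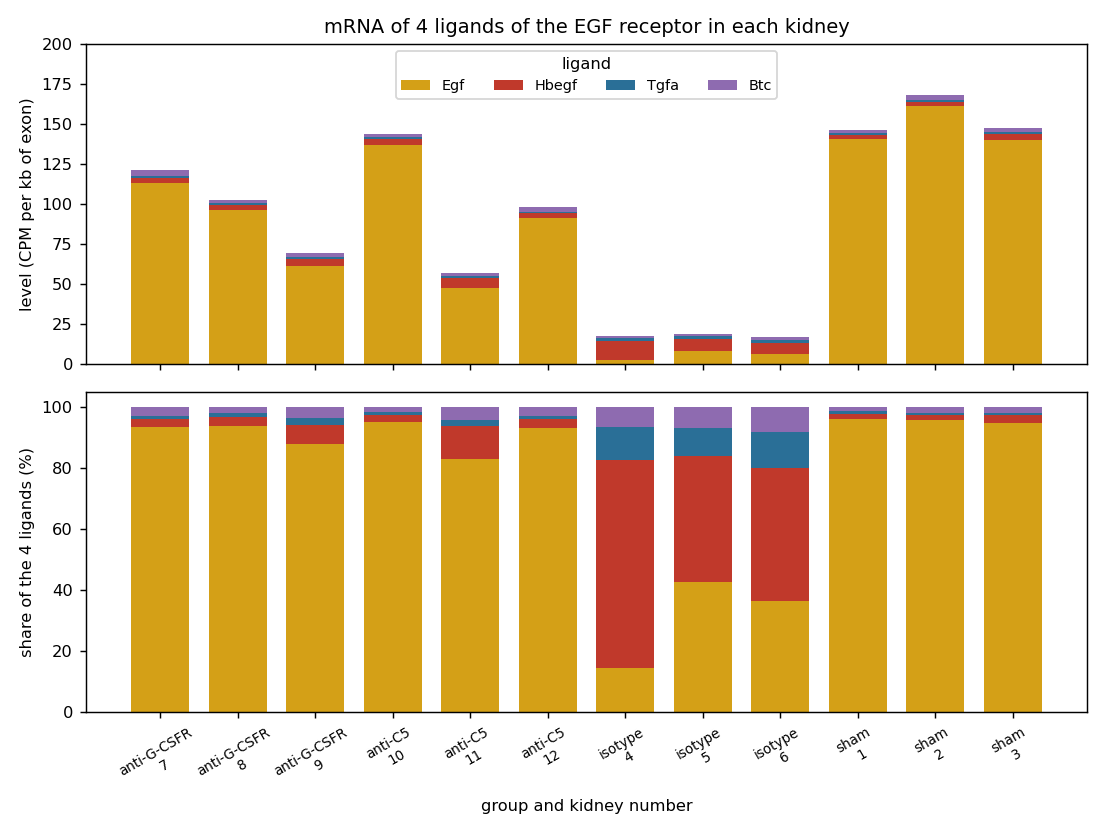
Summed level of 4 EGF receptor ligands in CPM per kb of exon (top) and the share of each ligand in the sum in percent (bottom), 1 bar per kidney, grouped as anti-G-CSFR, anti-C5, isotype and sham. The isotype bars reach 16.7 to 18.8 CPM per kb against 146 to 168 in sham kidneys, and Hbegf takes 41.4 to 68.1% of them.

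Egfr, the receptor of all the ligands above other than the neuregulins, rose modestly. The gene (Entrez 13649) spans chr11:16752203-16918158 on the plus strand. It stood at 52.5, 47.7 and 51.5 CPM in anti-G-CSFR kidneys, 51.1, 59.5 and 48.7 CPM in anti-C5 kidneys, 83.2, 76.8 and 77.0 CPM in isotype kidneys and 58.8, 52.9 and 65.1 CPM in sham kidneys. The isotype kidneys were above all others, and the anti-G-CSFR kidneys were all below the sham kidneys. The log2 change was 0.42 ± 0.102 in isotype against sham kidneys (SE, edgeR adjusted p = 0.0035), or 1.34-fold. It was -0.64 ± 0.103 for anti-G-CSFR against isotype (SE, edgeR adjusted p = 0.00024) and -0.57 ± 0.102 for anti-C5 against isotype (SE, edgeR adjusted p = 0.00060). The bases before its start, chr11:16751953-16752202 on the plus strand, are 60.8% G or C and hold 1 GC box, read on the opposite strand at positions -9 to -4 from the start and shown in capitals.

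Egfr: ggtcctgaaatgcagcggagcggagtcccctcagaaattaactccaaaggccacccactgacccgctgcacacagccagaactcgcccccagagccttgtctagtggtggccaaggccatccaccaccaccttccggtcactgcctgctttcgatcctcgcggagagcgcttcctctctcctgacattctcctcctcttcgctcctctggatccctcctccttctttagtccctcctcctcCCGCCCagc

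Erbb2 and Erbb3 were not called in any comparison. Erbb2, the relative that binds no ligand and serves as a partner for the others, has its gene (Entrez 13866) at chr11:98412470-98437716 on the plus strand. It stood at 51.7, 57.4 and 64.2 CPM in anti-G-CSFR kidneys, 60.8, 52.5 and 48.0 CPM in anti-C5 kidneys, 52.4, 62.5 and 59.1 CPM in isotype kidneys and 53.0, 65.8 and 54.0 CPM in sham kidneys. The 4 groups overlapped throughout. The log2 change in isotype against sham kidneys was 0.01, with a 95% interval of -0.26 to 0.28 (edgeR adjusted p = 0.96).

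Erbb3, a neuregulin receptor with little kinase activity of its own, has its gene (Entrez 13867) at chr10:128567523-128589652 on the minus strand. It stood at 40.0, 42.4 and 59.0 CPM in anti-G-CSFR kidneys, 62.5, 45.6 and 45.1 CPM in anti-C5 kidneys, 40.2, 57.2 and 55.6 CPM in isotype kidneys and 45.8, 62.6 and 43.6 CPM in sham kidneys. It overlapped across all groups too, with a wider spread than Erbb2. The log2 change in isotype against sham kidneys was 0.01, with a 95% interval of -0.43 to 0.45 (edgeR adjusted p = 0.97).

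Erbb4, the remaining receptor of the family and not among the chosen members, fell in isotype against sham kidneys, at -0.73 ± 0.132 (SE, edgeR adjusted p = 0.00053). It averaged 36.0 ± 4.30 CPM in anti-G-CSFR kidneys, 37.6 ± 5.39 CPM in anti-C5 kidneys, 27.9 ± 1.92 CPM in isotype kidneys and 46.4 ± 5.85 CPM in sham kidneys (SD, n = 3 each). It was called higher than in isotype kidneys under anti-G-CSFR, at 0.37 ± 0.133 (SE, edgeR adjusted p = 0.028), and under anti-C5, at 0.44 ± 0.133 (SE, edgeR adjusted p = 0.014). The anti-G-CSFR call was lost without kidney 4, 5 or 7, at edgeR adjusted p of 0.062, 0.082 and 0.12, and the anti-C5 call without kidney 10 (edgeR adjusted p = 0.068). Scaled by library totals, both were lost, at edgeR adjusted p of 0.33 and 0.13.

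Adam8, a membrane protease known from neutrophils and macrophages and able to cut several surface proteins, made the largest rise. The gene (Entrez 11501) spans chr7:139978932-139992562 on the minus strand. It stood at 0.528, 1.27 and 1.89 CPM in anti-G-CSFR kidneys, 0.917, 14.9 and 0.309 CPM in anti-C5 kidneys, 22.8, 29.4 and 29.9 CPM in isotype kidneys and 0.335, 0.260 and 0.274 CPM in sham kidneys. The sham values rest on 4 or 5 reads per kidney, against 410, 479 and 470 reads in isotype kidneys 4, 5 and 6. Every isotype kidney was above every other kidney, and kidney 11 of the anti-C5 group, with 206 reads, was the nearest to them.

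The rise of Adam8 in isotype against sham kidneys was 6.52 ± 1.16 on the log2 scale (SE, edgeR adjusted p = 0.00050), or 91.9-fold. Every gene of the table reached at least 2.01 CPM in 3 kidneys, and Adam8 did so only in the isotype kidneys and kidney 11, so it is in the table through the kidneys where it is high and had to differ. In anti-G-CSFR against isotype kidneys Adam8 fell by 4.49 ± 0.965 (SE, edgeR adjusted p = 0.0017), 22.5-fold. In anti-C5 against isotype kidneys it fell by 2.34 ± 0.816 (SE, edgeR adjusted p = 0.027), 5.07-fold, and this call depends on single kidneys. It was lost without kidney 5, 6, 10 or 12, at edgeR adjusted p between 0.052 and 0.076, and in a fit of the 6 compared libraries alone (edgeR adjusted p = 0.087). Without kidney 11 the change was -5.44 (edgeR adjusted p = 1.8e-06), and without kidneys 9 and 11 it was -5.42 (edgeR adjusted p = 8.8e-07).

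Markers of neutrophils moved with Adam8 in most groups. Of 10 listed, 9 had an entry, and all 9 were called higher in isotype against sham kidneys, beside 32.1% of all genes. Low markers such as Clec4e, at a mean of 2.03 CPM in isotype kidneys, may be in the table through the kidneys where they are high. The count of 9 may thus be fixed in part. The summed level of the 9 markers ran from 2.39 to 3.10 CPM in anti-G-CSFR kidneys, 8.53 to 127 CPM in anti-C5 kidneys, 51.7 to 136 CPM in isotype kidneys and 8.43 to 10.9 CPM in sham kidneys. Clec4e was at 0 reads in every anti-G-CSFR kidney and in 2 of the sham kidneys. The anti-G-CSFR kidneys lay below the sham kidneys in this sum but above them in Adam8. Kidney 11 was high in both, at 127 CPM for the sum. Summed markers of monocytes and macrophages ran from 103 to 111 CPM in anti-G-CSFR kidneys, 120 to 185 CPM in anti-C5 kidneys, 197 to 211 CPM in isotype kidneys and 95.03 to 123 CPM in sham kidneys. Summed markers of injured tubules were highest in kidney 9 among anti-G-CSFR kidneys, at 12164 CPM, and in kidney 11 among anti-C5 kidneys, at 14671 CPM. Adam8 was highest in the same 2 kidneys, while the neutrophil sum of kidney 9 was 3.03 CPM. The part of any of these cell types in the Adam8 result was not tested.

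The bases before the Adam8 start, chr7:139992563-139992812 on the minus strand, are 52.8% G or C. They hold 1 GC box at positions -35 to -30 and 2 CCAAT boxes at -211 to -207 and at -17 to -13, each read on the opposite strand and shown in capitals.

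Adam8: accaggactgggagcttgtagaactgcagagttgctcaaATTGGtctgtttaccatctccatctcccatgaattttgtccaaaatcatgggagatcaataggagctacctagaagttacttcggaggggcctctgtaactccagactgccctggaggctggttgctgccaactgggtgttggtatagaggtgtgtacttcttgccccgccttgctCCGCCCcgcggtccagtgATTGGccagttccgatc

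Adam10, the main sheddase of Egf and of many other surface proteins, rose slightly. The gene (Entrez 11487) spans chr9:70678997-70780229 on the plus strand. It stood at 93.9, 95.2 and 111 CPM in anti-G-CSFR kidneys, 99.7, 113 and 92.3 CPM in anti-C5 kidneys, 129, 145 and 146 CPM in isotype kidneys and 117, 107 and 107 CPM in sham kidneys. The isotype kidneys were above all others. The log2 change was 0.34 ± 0.103 in isotype against sham kidneys (SE, edgeR adjusted p = 0.013), -0.48 ± 0.103 for anti-G-CSFR against isotype (edgeR adjusted p = 0.0016) and -0.46 ± 0.103 for anti-C5 against isotype (edgeR adjusted p = 0.0025). Scaled by library totals, the first was 0.54.

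Adam17, the main sheddase of HB-EGF, TGF-alpha and amphiregulin and of tumour necrosis factor, was not called in any comparison. The gene (Entrez 11491) spans chr12:21323509-21373632 on the minus strand. It stood at 42.6, 41.6 and 48.1 CPM in anti-G-CSFR kidneys, 42.9, 49.8 and 38.7 CPM in anti-C5 kidneys, 50.2, 50.1 and 50.1 CPM in isotype kidneys and 47.2, 46.7 and 42.2 CPM in sham kidneys. Every isotype kidney was above every other kidney, but kidney 11 came within 1 CPM of them. The log2 change was 0.14 ± 0.103 in isotype against sham kidneys (SE, edgeR adjusted p = 0.24), -0.18 ± 0.103 for anti-G-CSFR against isotype (edgeR adjusted p = 0.14) and -0.19 ± 0.103 for anti-C5 against isotype (edgeR adjusted p = 0.12). Scaled by library totals it was called in all 3, at edgeR adjusted p of 0.039, 0.021 and 0.030, and without kidney 11 it was called in the last (edgeR adjusted p = 0.023).

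Counting only whether the 3 kidneys of one group all lay outside the range of the other, 7 of 9 members were separated in isotype against sham kidneys, where 69.2% of all genes were. Under anti-G-CSFR against isotype 7 of 9 were separated, beside 67.2% of all genes, and under anti-C5 against isotype 7 of 9, beside 62.7%. Erbb2 and Erbb3 were the members that overlapped each time. Adam8 was among the 7 each time, with the limit given for it above. Within the set, the order of levels per kb of exon in sham kidneys was Egf at 147 ± 12.1, Adam10 at 22.5 ± 1.11, Erbb2 at 11.1 ± 1.36, Erbb3 at 8.42 ± 1.73, Adam17 at 6.34 ± 0.388, Egfr at 5.21 ± 0.539, Hbegf at 3.02 ± 0.624, Tgfa at 1.21 ± 0.137 and Adam8 at 0.0624 ± 0.00865 CPM per kb (SD, n = 3 each). Erbb2 and Erbb3 were the only neighbours in that order whose kidneys overlapped. Orders per kb rest on the merged exon lengths and are approximate. In isotype kidneys the order was Adam10 at 28.5 ± 1.91, Erbb2 at 11.1 ± 0.986, Hbegf at 9.01 ± 2.55, Erbb3 at 8.48 ± 1.56, Adam17 at 7.00 ± 0.00751, Egfr at 6.98 ± 0.322, Adam8 at 5.90 ± 0.862, Egf at 5.57 ± 2.77 and Tgfa at 1.87 ± 0.126 CPM per kb (SD, n = 3 each). There Erbb2 overlapped with Hbegf, Hbegf with Erbb3, Erbb3 with Adam17, Adam17 with Egfr, and Adam8 with Egf, while Egfr and Adam8 did not overlap.

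The mRNAs of other proteins that cut or control such membrane proteins mostly rose. Of 14 measured, 9 were called higher and 2 lower in isotype against sham kidneys, beside 32.1% and 30.7% of all genes. Their median log2 change was 0.51. Adam12, a protease reported to cut HB-EGF, averaged 37.4 CPM in isotype kidneys, against 5.88 CPM in sham kidneys, and rose by 2.67 ± 0.433 on the log2 scale (SE, edgeR adjusted p = 0.00026). Adam19, a protease linked to neuregulin processing, rose by 2.52 ± 0.417 (SE, edgeR adjusted p = 0.00030). Timp3, an inhibitor of ADAM10 and ADAM17, fell by 1.03 ± 0.157 on the log2 scale (SE, edgeR adjusted p = 0.00016), to 1154 CPM in isotype kidneys against 2361 CPM in sham kidneys. Tspan33, a tetraspanin partner of ADAM10, fell by 0.73 ± 0.104 (SE, edgeR adjusted p = 0.00010). Under each antibody, 2 of the 14 were called higher than in isotype kidneys and 9 lower, with medians of -0.49 for anti-G-CSFR and -0.41 for anti-C5.

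The mRNAs of proteins reported to be cut by ADAM10 or ADAM17 rose more often than they fell. Of 16 measured, 12 were called higher and 2 lower in isotype against sham kidneys, beside 32.1% and 30.7% of all genes. Their median log2 change was 0.72. Havcr1, the injury marker whose ectodomain is shed into urine, rose by 9.15 ± 2.08 on the log2 scale (SE, edgeR adjusted p = 0.0028), and Sdc1, a heparan sulphate proteoglycan of epithelia, by 2.03 ± 0.340 (SE, edgeR adjusted p = 0.00032). Kl, the anti-ageing hormone Klotho and co-receptor of FGF23, fell by 2.68 ± 0.197 (SE, edgeR adjusted p = 2.7e-06). In anti-G-CSFR against isotype kidneys 2 were called higher and 12 lower. In anti-C5 against isotype kidneys 2 were called higher and 10 lower, and there Havcr1 was not called, at -2.92 ± 1.55 (SE, edgeR adjusted p = 0.12). Without kidney 11 it was called, at -7.41 (edgeR adjusted p = 0.00082), and 12 of the list were called lower. The anti-G-CSFR call of Havcr1, at -4.86 ± 1.69 (SE, edgeR adjusted p = 0.027), was lost without kidney 4, 7 or 8 (highest edgeR adjusted p 0.082).

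Most of the genes listed as dampening EGF receptor signalling rose in the isotype group. Of 19 measured, 14 were called higher and 1 lower in isotype against sham kidneys, beside 32.1% and 30.7% of all genes. Their median log2 change was 0.63. Dusp5, a phosphatase of ERK in the nucleus, averaged 17.1 CPM in isotype kidneys, against 0.732 CPM in sham kidneys, and rose by 4.53 ± 0.581 (SE, edgeR adjusted p = 5.3e-05). Dusp5 may be in the table through the kidneys where it is high, so its call may be fixed in part. Spred3, an inhibitor of the Ras to ERK step, rose by 3.45 ± 0.435 (SE, edgeR adjusted p = 4.7e-05). Lrig3, a membrane protein of a family that controls ERBB receptor levels, was the 1 called lower, at -0.54 ± 0.160 (SE, edgeR adjusted p = 0.011), and lost the call without kidney 2 (edgeR adjusted p = 0.051) and under library totals, where it was -0.34 (edgeR adjusted p = 0.11). Errfi1, which inhibits the receptor kinase directly, was not called, at -0.05 ± 0.190 (SE, edgeR adjusted p = 0.84). In each antibody group 1 gene was called higher than in isotype kidneys, which was Lrig3, and 15 lower. The Lrig3 call held in 18 of 22 alternative settings under anti-G-CSFR and in only 8 of 22 under anti-C5. Without kidneys 9 and 11, none was called higher, and 15 were called lower in the anti-G-CSFR group and 14 in the anti-C5 group. The median was -0.61 for anti-G-CSFR and -0.53 for anti-C5.

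Genes of adaptors and kinases that carry the signal inside the cell were called about as often as genes in general. Of 20 measured, 9 were called higher and 3 lower in isotype against sham kidneys, with a median log2 change of 0.27, and 8 were not called, beside 62.8% of all genes called. Nras, a Ras protein, rose by 1.66 ± 0.167 (SE, edgeR adjusted p = 1.1e-05), and Shc1, an adaptor that binds the active receptor, by 1.06 ± 0.125 (SE, edgeR adjusted p = 3.0e-05). Gab1, a docking protein for PI3-kinase, fell by 0.55 ± 0.124 (SE, edgeR adjusted p = 0.0024), and Pik3ca, a catalytic subunit of that kinase, by 0.49 ± 0.0958 (SE, edgeR adjusted p = 0.00095). Against isotype kidneys, 2 were called higher and 9 lower under anti-G-CSFR, and 2 higher and 7 lower under anti-C5. Scaled by library totals, these were 0 higher and 14 lower under anti-G-CSFR and 0 higher and 13 lower under anti-C5, and without kidney 4 the count lower under anti-C5 was 11.

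Genes known to respond to ERK gave the largest shift of any pathway list. All 11 measured were called in isotype against sham kidneys, 9 higher and 2 lower, beside 32.1% and 30.7% of all genes. Their median log2 change was 2.18. Fosl1, an AP-1 subunit, stood at 0, 0.149 and 1.59 CPM in anti-G-CSFR kidneys, 0.141, 11.3 and 0 CPM in anti-C5 kidneys, 61.1, 81.0 and 88.0 CPM in isotype kidneys and at 0 in every sham kidney. With a floor of 3 reads over the sham group, it was at least 1149-fold higher in isotype kidneys (edgeR adjusted p = 0.00094). Like Adam8, Fosl1 reached 2.01 CPM only in the isotype kidneys and kidney 11. It is in the table through the kidneys where it is high and had to differ. Plaur, the urokinase receptor, averaged 109 CPM in isotype kidneys, against 3.38 CPM in sham kidneys, and rose by 5.00 ± 0.722 (SE, edgeR adjusted p = 0.00012). Ccnd1, cyclin D1, fell by 0.68 ± 0.130 (SE, edgeR adjusted p = 0.00078), and Etv5, an ETS factor, by 0.62 ± 0.151 (SE, edgeR adjusted p = 0.0035), although both are known as genes that ERK raises. Under each antibody, 2 of the 11 were called higher than in isotype kidneys and 9 lower, with medians of -1.98 for anti-G-CSFR and -1.74 for anti-C5. Of 22 alternative settings, Etv5 lost its call in 4 under anti-G-CSFR and in 3 under anti-C5. Fosl1 lost its anti-C5 call with DESeq2 alone (DESeq2 adjusted p = 0.11). Many other pathways also act on these genes, and the part of EGF receptor signalling in their change was not tested. Summed markers of injured tubules ran from 1752 to 12164 CPM in anti-G-CSFR kidneys, 1677 to 14671 CPM in anti-C5 kidneys, 34362 to 39365 CPM in isotype kidneys and 1493 to 2410 CPM in sham kidneys. The heat map of both lists shows most genes above the sham mean in all 3 isotype kidneys, with kidney 11 between these and the other antibody-treated kidneys for genes such as Fosl1, Plaur and Dusp5.

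**Figure D5:**
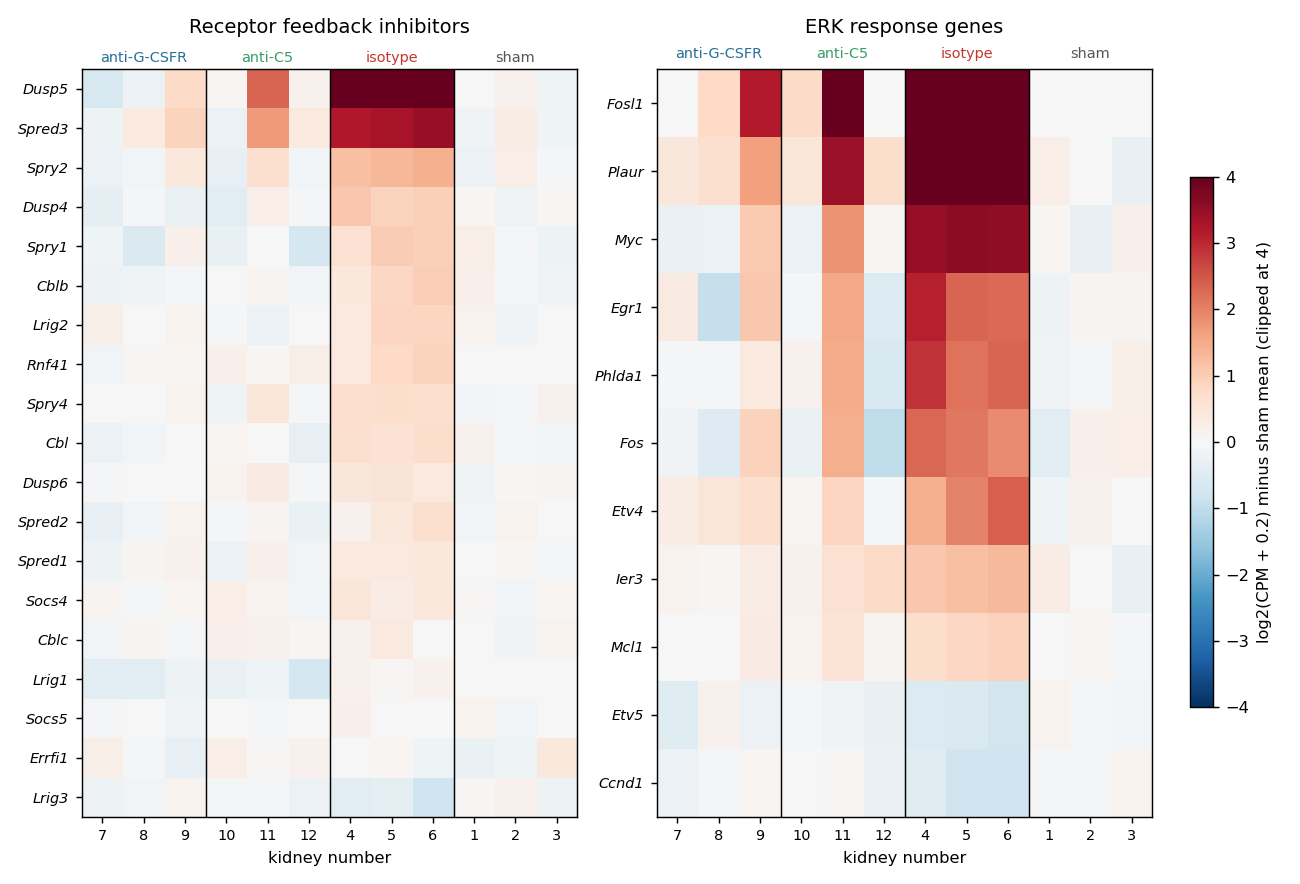
Receptor feedback inhibitors (left, 19 genes) and ERK response genes (right, 11 genes) in each kidney, coloured by log2(CPM + 0.2) minus the sham mean, with colours clipped at 4; columns run from anti-G-CSFR over anti-C5 and isotype to sham kidneys. The isotype columns are red for most genes, and among antibody-treated kidneys 11 and, less so, 9 are the reddest.

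Against sham kidneys, no member was called in either antibody group, where edgeR called 0% of all genes at an adjusted p below 0.05. For anti-G-CSFR against sham, 778 genes had an unadjusted p below 0.05 in edgeR, DESeq2 called 1 gene higher and 0 lower, limma-voom called 0, and edgeR on the 6 compared libraries alone called 41 higher and 2 lower. For anti-C5 against sham, 1487 genes had an unadjusted p below 0.05, DESeq2 called 10 higher and 15 lower, and limma-voom called 0. None of the 9 members was called by any of these tools, but DESeq2 gave Adam8 no adjusted p. Egf was lower than in every sham kidney in all 6 antibody-treated kidneys. Its log2 change was -0.71 under anti-G-CSFR, with a 95% interval of -1.60 to 0.19 (edgeR adjusted p = 0.81), and -0.68 under anti-C5, with an interval of -1.57 to 0.22 (edgeR adjusted p = 0.54). These intervals do not show that Egf was back at its sham level. Egfr had a log2 change of -0.22 under anti-G-CSFR, with an interval of -0.45 to 0.00 (edgeR adjusted p = 0.81). Adam8 had one of 2.03 under anti-G-CSFR, with an interval of -1.18 to 5.25 (edgeR adjusted p = 0.84), and of 4.18 under anti-C5, with an interval of 1.49 to 6.87 (edgeR adjusted p = 0.37). The anti-C5 value rests on kidney 11, without which it was 1.09 (edgeR adjusted p = 0.62). Adam8 under anti-C5 was the only member with an unadjusted p below 0.05. Groups were separated for 3 of 9 members under anti-G-CSFR (Egf, Egfr and Adam8), beside 18.4% of all genes, and for 1 of 9 under anti-C5 (Egf), beside 18.0%.

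Between the antibody groups, no member was called and none was separated, beside 0% and 4.28% of all genes. There edgeR gave 207 genes an unadjusted p below 0.05, DESeq2 called 0 higher and 2 lower in anti-G-CSFR against anti-C5 kidneys, and limma-voom called 0. The log2 change of Egf was -0.03, with a 95% interval of -0.92 to 0.86 (edgeR adjusted p = 1.0), and that of Hbegf was -0.21, with an interval of -0.85 to 0.44 (edgeR adjusted p = 1.0). Adam8 had the widest interval of the members, at -2.15 with -4.32 to 0.02 (edgeR adjusted p = 1.0). With kidneys 9 and 11 left out, its difference was 0.50. These intervals do not show that the antibody groups were alike.

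The kidneys that stood apart did so in some of the members too. Placed between the mean log2 levels of sham (0%) and isotype kidneys (100%), Egf in the anti-G-CSFR kidneys 7, 8 and 9 lay at 7.68, 12.5 and 25.9% and in the anti-C5 kidneys 10, 11 and 12 at 2.02, 33.4 and 14.0%. Hbegf lay at 7.55, 3.09 and 35.8% in the anti-G-CSFR kidneys and at 12.4, 67.5 and -8.04% in the anti-C5 kidneys. Adam8 lay at 10.8, 28.8 and 37.6% in the anti-G-CSFR kidneys and at 21.8, 85.7 and 1.16% in the anti-C5 kidneys. For all 3 genes kidney 9 was the farthest of its group toward isotype and kidney 11 the farthest of its own. The same held for Adam10 and Adam17. In Tgfa kidney 9 lay at 43.9%, but kidney 11 lay at -10.1%, near kidneys 10 and 12 at -15.8 and -23.1%. Egfr followed only for kidney 11: it lay at -38.5, -70.4 and -44.6% in the anti-G-CSFR kidneys and at -47.5, 4.33 and -63.5% in the anti-C5 kidneys, with kidney 9 among the rest of its group. Leaving out both kidneys, 5 members were called higher and 1 lower in isotype against sham kidneys, 1 higher and 5 lower in anti-G-CSFR against isotype kidneys, and 1 higher and 6 lower in anti-C5 against isotype kidneys, where Adam17 was the added one. Of all genes, 32.4% were then called higher and 31.6% lower in isotype against sham kidneys, 32.4% and 31.3% in anti-G-CSFR against isotype kidneys, and 31.6% and 30.5% in anti-C5 against isotype kidneys.

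For 4 members, the genes with the most similar profile over the 12 libraries were looked up by the root mean square difference of log2 CPM, each profile centred on its own mean. For Egf these were Slc5a8, Dpys, Car5a, C1qtnf3 and Ppp1r1b, at 0.43 to 0.48. Slc5a8, a lactate transporter of the tubule, averaged 369 CPM in anti-G-CSFR kidneys, 303 CPM in anti-C5 kidneys, 22.6 CPM in isotype kidneys and 478 CPM in sham kidneys. For Hbegf they were Nop58, Trim47, Grwd1, Tuba1b and Gpatch4, at 0.14 to 0.17, and for Egfr Trim8, Prmt5, Ubxn4, Cpsf2 and Exosc10, at 0.07 to 0.08. For Adam8 they included Gsta1, Akr1b8, Grp and Ptprn, at 0.46 to 0.60. Gsta1, a glutathione transferase, averaged 8.85 CPM in anti-G-CSFR kidneys, 36.1 CPM in anti-C5 kidneys, 218 CPM in isotype kidneys and 2.56 CPM in sham kidneys. No other member was among the 5 nearest genes of any of these 4.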

How the data were processed

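The deposited table holds raw read counts per gene, as whole numbers, for 13124 genes and 12 libraries; per the labels' protocols, libraries were strand-specific and read as single ends of 100 bases, and per the labels' descriptions all ran in 1 lane. Per the submitters' processing notes, the authors used TopHat2 2.1.0, Bowtie2 2.2.5 and featureCounts with the build GRCm38.p4; how strand was handled in counting is not given in the sources used here. Reads of Egf, Egfr, Tgfa, Erbb2, Adam8 and Adam17 may therefore include some from genes that overlap them on the other strand. The third-highest CPM was at least 2.01 for every gene, so low genes had been removed before deposit, and the members were tested only if they passed.

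Symbols came from RefSeq (13074 of 13124 genes; the other 50 held 0.0811% of counts), coordinates from GENCODE vM21, counted from 1. edgeR 4.0.16 (R 4.3.3) fitted TMM-scaled counts of all 12 libraries with robust quasi-likelihood, 8 residual degrees of freedom and a common biological coefficient of variation of 16.4%; it was tested on simulated data with known changes. Pairs of kidneys within groups gave chi-square values of 5.45 to 65.3 for each degree of freedom, and no library was treated as a copy of another. No kidney number occurs in more than 1 group, so nothing was paired.

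The members, lists and tests were chosen with earlier results of these data known. Named genes are the measured members, Havcr1, Lcn2, the further ligands and receptor, the called genes with the 2 largest rises and 2 largest falls of each pathway list in isotype against sham, and the 5 nearest profiles of 4 members; Umod, Slc12a1, Pvalb, Trpm6, Errfi1 and Clec4e were named after their values were seen, and 2 genes that the rule names are not reported here. Alternatives were upper-quartile or RLE factors, library totals, filterByExpr (which removed 0 genes), a mean CPM of at least 1 (which removed 12), DESeq2 1.42.0, limma-voom (limma 3.58.1), a fit without the robust option, only the 6 compared libraries and each kidney left out; leaving out kidneys 9 and 11 together, and kidney 11 for neutrophil markers, was chosen after the data were seen. Intervals and floors cover the spread between these kidneys or counting error only.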

Additional observations from a re-analysis of the deposited data

How the results depend on the processing

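Of 45 member changes compared across settings, 18 were called and 17 of these stayed called in every alternative that gave an adjusted p; the exception was Adam8 in anti-C5 against isotype kidneys, whose change ran from -5.44 to -1.79 with 1 kidney left out. DESeq2 gave no adjusted p for Adam8, which is therefore missing from its counts. Under library totals the all-gene median log2 change became 0.23 (isotype against sham kidneys), -0.23 (anti-G-CSFR against isotype) and -0.19 (anti-C5 against isotype), and only then were 6 members called higher in the first. No paired analysis was possible because no kidney number occurs in more than 1 group.

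Some uncalled changes turned sign. In the TMM-scaled edgeR fit of all 12 libraries these were under 0.25 in size, except Adam8 in anti-G-CSFR against anti-C5, which was -2.15 and rests on kidney 11. The cause was not tested. Erbb2 in isotype against sham was -0.00511 with RLE factors, -0.00531 with DESeq2, -0.000676 with only the 6 compared libraries and -0.000719 without kidneys 9 and 11, and -0.048 to 0.12 with 1 kidney left out. Erbb3 there was -0.00528, -0.00490, -0.00152 and -0.00164 in the same settings, and -0.089 to 0.19 with 1 left out. Erbb2 in anti-G-CSFR against isotype was 0.000906 with RLE factors, 0.000847 with DESeq2 and -0.0748 to 0.0681 with 1 left out. Erbb3 in anti-C5 against isotype was -0.00770 with upper-quartile factors, -0.18 with library totals, -0.013 with the 6 compared libraries and -0.17 to 0.092 with 1 left out. Tgfa in anti-G-CSFR against sham was -0.041 without kidneys 9 and 11 and -0.041 to 0.16 with 1 left out. In anti-G-CSFR against anti-C5, Egf was 0.051 with limma-voom and -0.34 to 0.38 with 1 left out; without kidneys 9 and 11, Hbegf was 0.048, Egfr 0.015 and Adam8 0.50, and with 1 left out Hbegf ran from -0.43 to 0.21, Egfr from -0.13 to 0.020, Adam8 from -2.70 to 0.94 and Adam10 from -0.093 to 0.058.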

Other observations

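Of 7 endothelial markers, 3 were called higher and none lower in isotype against sham kidneys, with summed levels of 361 to 441 CPM in anti-G-CSFR kidneys, 409 to 414 CPM in anti-C5 kidneys, 450 to 695 CPM in isotype kidneys and 412 to 457 CPM in sham kidneys. Of 5 markers of fibroblasts and pericytes, 4 were called higher and none lower, with sums of 140.4 to 360 CPM in anti-G-CSFR kidneys, 168 to 448 CPM in anti-C5 kidneys, 562 to 628 CPM in isotype kidneys and 154 to 243 CPM in sham kidneys. Of 5 podocyte markers, 1 was called higher and 1 lower, and of 4 general leukocyte markers 2 were called higher and none lower. Of 8 markers of monocytes and macrophages, 3 were called higher and 1 lower. Of 5 platelet markers, 2 had an entry, 1 called higher and 1 lower. All 10 markers of injured tubules were called higher, with a median log2 change of 4.46. Beside these marker counts, 32.1% of all genes were called higher and 30.7% lower.

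Of the 9 measured neutrophil markers, 3 were called lower in anti-C5 against isotype kidneys and none higher, with a median log2 change of -0.86, beside 9 of 9 lower under anti-G-CSFR with a median of -5.35. The shares of all genes called lower were 29.8% under anti-C5 and 32.0% under anti-G-CSFR. Low markers may be in the table through the kidneys where they are high, so the marker counts may be fixed in part. The difference between the antibodies in the marker counts was not tested. In anti-G-CSFR against anti-C5 kidneys, edgeR called none of the 9, 8 had an unadjusted p below 0.05, and the median log2 change was -4.36. These anti-C5 values rest on kidney 11, whose summed level was 127 CPM, against 8.53 and 13.7 CPM in the other anti-C5 kidneys. Without it, 9 of 9 were called lower in anti-C5 against isotype kidneys, with a median of -3.33, and the median in anti-G-CSFR against anti-C5 kidneys was -2.25.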
